A study of Boehmeria nivea with 6 samples.

Results

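Strongly leaf-enriched genes of ramie (Boehmeria nivea), a perennial crop grown for its stem fibre, were described in the 6 RNA sequencing libraries of the series. A gene was a member if it had at least 1 FPKM in leaf and if its leaf value, with 1 added to each FPKM, was at least 8 times that of root and at least 8 times that of stem, in both varieties. FPKM is a fragment count adjusted for how long the gene is and how large the library is. A total of 177 of the 20693 genes met this rule. Members were therefore chosen by their leaf-to-root and leaf-to-stem ratios, and those ratios are given below as descriptions, with no test. The varieties were the wild tenacissima accession QYZM and the cultivar ZSZ1, each sampled as leaves, roots and stems of 30-day-old plants. Each tissue of each variety was represented by 1 library, so no group had a replicate. How many plants went into a library was not given in the sources used here. Summed FPKM per library was lowest in ZSZ1 leaf (306497) and highest in QYZM leaf (433435), and the spacing of the smallest values put relative depth at 0.91 to 1.14 times the mean. The number of reads per library is unknown.

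Leaves are the main photosynthetic organs of a plant. The nuclear genes for light harvesting, for carbon fixation and for building chlorophyll are known to be transcribed mainly in green tissue, and leaf epidermis adds genes for wax and cuticle. Roots take up water and minerals and are normally not green, whereas a young stem carries green outer tissue around its vascular and fibre tissue. The table names genes by identifier alone, with no products or sequences, so it could not be examined which of these functions the 177 genes have, and the leaf label could not be checked against known leaf genes. In whole organs, fewer cells of a type and less RNA per cell cannot be told apart.

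The 177 genes were abundant in leaf and low elsewhere in both varieties. Their median leaf level was 103 FPKM in QYZM and 98.5 FPKM in ZSZ1. In stem the median was 3.0 FPKM in QYZM and 3.45 FPKM in ZSZ1. In root it was 1.60 FPKM in QYZM and 0.537 FPKM in ZSZ1, the lowest of the 6 libraries. The leaf values spanned a wide range, from 9.47 to 13029 FPKM in QYZM and from 8.84 to 14099.5 FPKM in ZSZ1.

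**Figure D1:**
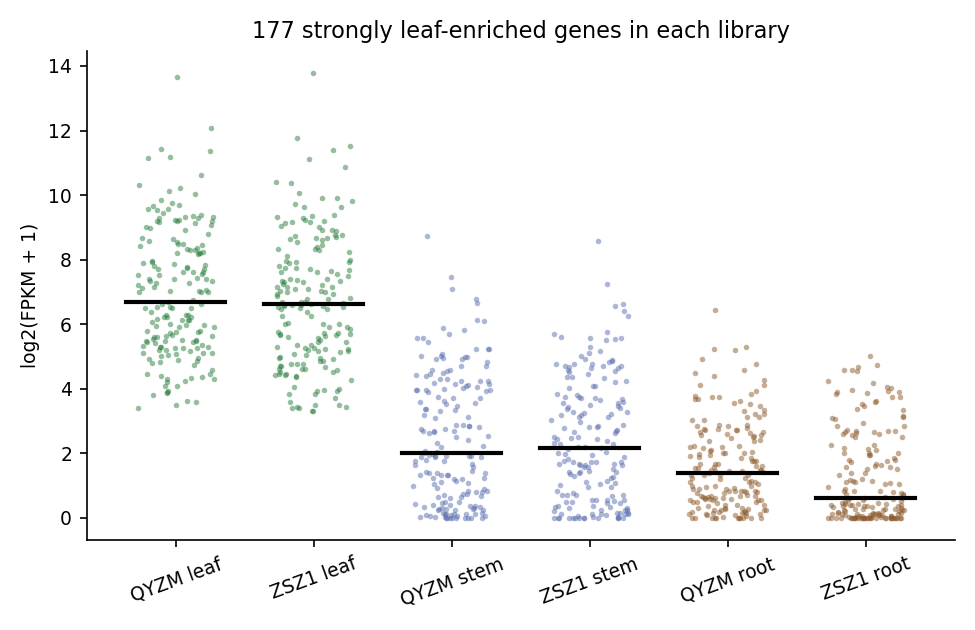
Expression of the 177 strongly leaf-enriched genes in each library, as log2(FPKM + 1). Each point is a gene and the black line is the median over the genes. The rule fixed that each gene lies higher in leaf than in stem and root of the same variety, while points of different genes overlap between organs. Within the low organs the ZSZ1 root library has the lowest median (0.537 FPKM).

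The members' leaf FPKM was concentrated in a small number of them. The 177 genes carried 15.2% of all FPKM in the leaf library of QYZM and 19.8% in that of ZSZ1. The same genes carried 0.665% and 0.609% in the stem libraries and 0.211% and 0.16% in the root libraries of QYZM and ZSZ1. The 10 highest members made up 49.2% of the members' leaf FPKM in QYZM and 52.7% in ZSZ1, and 9 genes stood among the 10 highest in both. Of the 100 highest genes of any kind in a leaf library, 37 were members in QYZM and 42 in ZSZ1. Members were 0.855% of all genes, and since the rule selects on leaf values, a raised share here is partly built in.

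**Figure D2:**
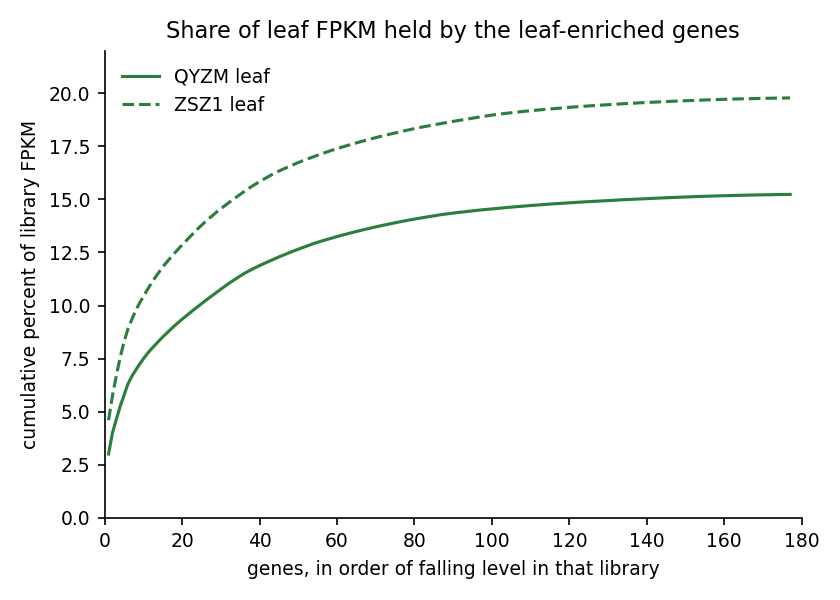
Cumulative share of all FPKM in a leaf library, in percent, against the number of leaf-enriched genes added in order of falling level. The curves reach 15.2% in QYZM and 19.8% in ZSZ1, and in each library the first 50 genes account for 12.7% and 16.7%.

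The most abundant member was Bnt09G013688, whose leaf level was 13029 FPKM in QYZM and 14099.5 FPKM in ZSZ1. It stood at 423 and 377 FPKM in the stems of QYZM and ZSZ1, the highest values of any member outside leaf. In root it was at 86.2 FPKM in QYZM and at 6.12 FPKM in ZSZ1. Leaf and stem values of the varieties were thus close for this gene, while its root values were far apart. Bnt01G001893 was next, with 4277 and 2911 FPKM in leaf, 176 and 152 FPKM in stem and 36.5 and 4.61 FPKM in root of QYZM and ZSZ1. It showed the same order of organs, leaf above stem above root, and again a lower root value in ZSZ1. Only 4 members reached 100 FPKM in any root or stem library. These also included Bnt06G010383 and Bnt02G003684, which are named here after their values were seen.

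Of the 4 leaf-to-other ratios of each gene, the smallest measures how strict the enrichment was. It lay between 8 and 16 for 105 members, between 16 and 32 for 52, between 32 and 64 for 8, and at 64 or more for 12. The smallest ratio was one of leaf to stem for 129 members and one of leaf to root for 48. The strictest pattern belonged to Bnt04G006845, with a smallest ratio of 885. It had 2655 and 2695 FPKM in leaf, 0.574 and 0.619 FPKM in stem and 2.0 FPKM in QYZM root, and it was listed at 0 in ZSZ1 root. Bnt05G008072 followed with a smallest ratio of 392, with leaf levels of 512 and 415 FPKM, a QYZM root level of 0.309 FPKM and listed values of 0 in the 3 other root and stem libraries. Such ratios rest on the added 1 where the other value is near 0.

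At the threshold, the members just inside were Bnt07G011813 and Bnt11G016089, with smallest ratios of 8.01 and 8.05. Bnt07G011813 had leaf levels of 29.0 and 24.5 FPKM, with 2.75 and 1.68 FPKM in stem and 0.459 and 0.299 FPKM in root. The genes just outside were Bnt05G008727 and Bnt07G011010, with smallest ratios of 7.998 and 7.995. Bnt05G008727 had 115 and 99.2 FPKM in leaf, 13.5 and 8.98 FPKM in stem and 1.19 and 0.671 FPKM in root. The smallest ratios on either side of the threshold were nearly equal, while the levels of these genes differed, and 236 further genes passed the same rule at 4-fold but not at 8-fold.

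Members differed in what remained outside leaf. A level of 1 FPKM was used to call a gene detected. In 40 members every root and stem library was below it, and their median leaf levels were 33.4 FPKM in QYZM and 20.6 FPKM in ZSZ1. In 67 members all 4 of these libraries were at or above it, with median leaf levels of 300 FPKM in QYZM and 252 FPKM in ZSZ1. A further 18 members were detected in both stems and in neither root. The opposite pattern, detection in both roots and in neither stem, was found in 2 members. The remaining 50 differed between the varieties in the organs in which they were detected. Since the rule caps root and stem relative to leaf, a member with a low leaf level had to be low elsewhere. Bnt07G011075 and Bnt02G002533, named here after their values were seen, were the 2 members listed at 0 in all root and stem libraries. Their leaf levels were 52.8 and 18.1 FPKM for Bnt07G011075 and 17.8 and 15.0 FPKM for Bnt02G002533 in QYZM and ZSZ1. What a listed 0 stands for in these files is not known.

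As a share of the leaf level of the same variety, stem held more of the members' expression than root did. The median member stood in stem at 3.51% of its leaf FPKM in QYZM and at 3.87% in ZSZ1. In root the median was 1.33% in QYZM and 0.727% in ZSZ1. At least 5% of the leaf level was reached in stem by 63 members in QYZM and 70 in ZSZ1, and in root by 20 and 16. The stem distributions of the varieties lay close together, while the ZSZ1 root values lay below the QYZM root values over most of their range. The rule allowed at most 12.5% of the leaf value, on the FPKM + 1 scale, in either organ.

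**Figure D3:**
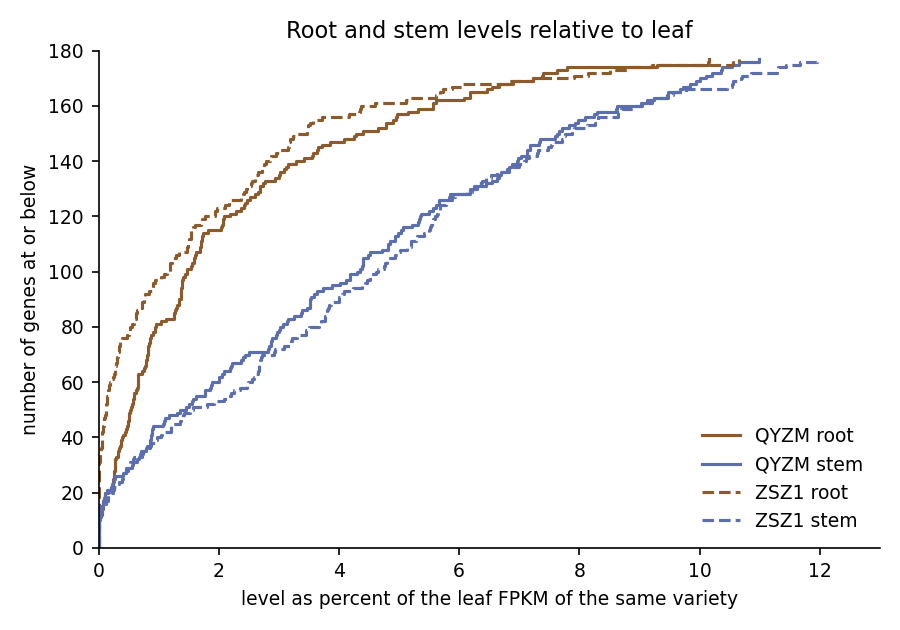
Number of the 177 genes whose root (brown) or stem (blue) FPKM is at or below a given percent of the leaf FPKM of the same variety, with QYZM as full and ZSZ1 as broken lines. The root curves rise faster than the stem curves, with medians of 1.33% and 0.727% for root against 3.51% and 3.87% for stem in QYZM and ZSZ1.

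The comparison of stem with root was not part of the rule, although the rule bounds both values from above. It asked whether the low remaining expression differed between these organs. Members were higher in stem than in root by a median of 0.68 in QYZM and 0.76 in ZSZ1 on the log2(FPKM + 1) scale. Over all 14941 genes tested, the medians were 0.01 and 0.01. In the limma fit of tissue and variety across all genes, a call needed a Benjamini-Hochberg adjusted p under 0.05 and a difference of 2-fold or more. By this test 42 members (23.7%) were called in either direction, beside 5.37% of all tested genes. These shares describe the members, whose root and stem values the rule had capped and of which 40 were below 1 FPKM in all root and stem libraries, and the members were not tested as a set. Of the 177 members 41 (23.2%) were higher in stem, where 3.64% of all tested genes were called in that direction. In the other direction 1 member (0.565%) was called lower in stem, beside 1.73% of all tested genes. At an unadjusted p below 0.05 in either direction limma found 85 members (48%), beside 23% of all tested genes. All 177 members were among the tested genes, since their leaf values alone met the filter.

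The 41 stem-higher members had differences of 1.55 to 3.72 with a median of 2.40, and limma adjusted p from 0.0134 to 0.0472. Each was higher in stem in both varieties, by at least 1.31 in each of them, and the difference was larger in ZSZ1 for 33 of the 41. Their median levels were 401 and 318 FPKM in leaf, 20.9 and 21.9 FPKM in stem and 2.85 and 1.09 FPKM in root of QYZM and ZSZ1. Their stem levels were 1.36% to 12.0% of their leaf levels.

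Bnt10G015822 had the largest difference of the called members. Its stem level was 46.0 FPKM in QYZM and 45.7 FPKM in ZSZ1, against 3.48 and 1.84 FPKM in root and 597 and 578 FPKM in leaf. The stem values of the varieties were nearly equal, and stem and root did not overlap (log2 difference 3.72 ± 0.29, SE; limma adjusted p = 0.0134). Bnt04G007119 had 46.8 and 51.0 FPKM in stem, 6.34 and 1.06 FPKM in root and 1120 and 1356 FPKM in leaf of QYZM and ZSZ1. Its root values differed more between varieties than its stem values, and the SE was larger (3.68 ± 0.55, SE; limma adjusted p = 0.0276). Without ZSZ1 stem its difference was 3.23 (limma adjusted p = 0.0932), and under median-of-ratios scaling it was 3.62 (limma adjusted p = 0.0551). Bnt09G013688, the most abundant member, had a larger difference between stem and root but was not called, with root values far apart between the varieties (4.01 ± 0.96, SE; limma adjusted p = 0.0739).

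Bnt04G005649 was the member called lower in stem. Its root level was 3.71 FPKM in QYZM and 7.45 FPKM in ZSZ1, against 0.0377 and 0.0839 FPKM in stem and 77.6 and 130 FPKM in leaf (log2 difference -2.57 ± 0.32, SE; limma adjusted p = 0.0221). Both roots lay above both stems. Without ZSZ1 stem its difference was -2.21 (limma adjusted p = 0.0932), and with no filter on low values it was -2.57 (limma adjusted p = 0.0595). With stem values near 0 it also moved with the pseudocount, to -1.04 at 5 (limma adjusted p = 0.0773) and -5.07 at 0.1 (limma adjusted p = 0.019). Bnt12G017927 had the next largest difference of this sign, at 2.16 and 1.52 FPKM in root and 0.212 and 0.368 FPKM in stem, and was not called (-1.13 ± 0.32, SE; limma adjusted p = 0.103).

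The stem-higher calls were unevenly spread over leaf levels. Of the 89 members with the highest mean leaf level, 37 (41.6%) were called higher in stem, and of the 88 others 4 (4.55%), a share near the 3.64% of all tested genes. Median levels in the first set were 15.7 and 12.3 FPKM in stem and 4.34 and 3.03 FPKM in root of QYZM and ZSZ1. In the second set they were 0.936 and 0.934 FPKM in stem and 0.549 and 0.197 FPKM in root, where the log2(FPKM + 1) scale compresses differences. The rule also caps stem relative to leaf, so members with the lowest leaf levels could not be 2-fold higher in stem. The uneven spread is thus partly set by the rule. Among the 236 genes that passed the rule at 4-fold but not at 8-fold, 40 (16.9%) were called higher in stem and 0 lower, and whether these sets differ was not tested. The median difference of the members had the same sign in both varieties under every pseudocount, scaling and membership fold tried. For the pseudocounts this was fixed in advance, since the added value cannot change the sign of a gene's difference.

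The count of stem-higher members changed when a single library was left out. Without ZSZ1 stem limma called 3 members (1.69%) higher in stem, beside 0.448% of all tested genes. Without QYZM leaf or without ZSZ1 leaf it called 0 members and 0 genes in all, with 79 and 78 members at an unadjusted p below 0.05. Both of these fits keep the same root and stem libraries and differences. They have 1 residual and 2.4 prior degrees of freedom, where the fit of all libraries has 2 and 3.71. Fits without a root or stem library have 1 residual and 6.6 to 6.72 prior degrees of freedom. The other omissions gave 53 members (29.9%) without QYZM root, 34 (19.2%) without QYZM stem and 32 (18.1%) without ZSZ1 root, beside 7.08%, 5% and 1.97% of all tested genes.

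**Figure D4:**
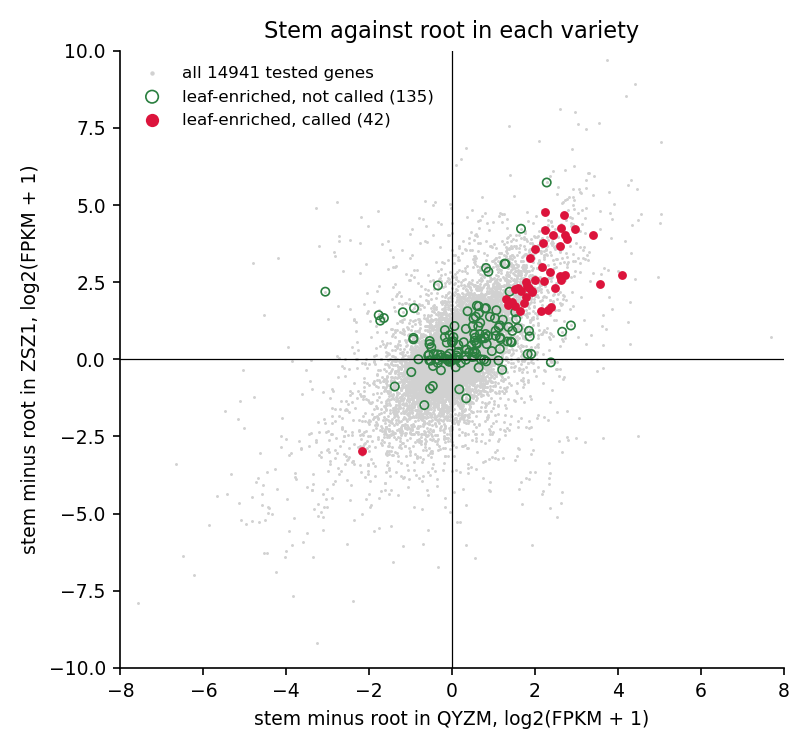
Stem minus root difference on the log2(FPKM + 1) scale in QYZM (horizontal) and in ZSZ1 (vertical), for all 14941 tested genes in grey and for the leaf-enriched genes as circles, filled red where limma called stem against root. Of the 42 called members 41 lie in the upper right, higher in stem in both varieties, and 1 lies in the lower left.

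Counted without a test, stem was above root in both varieties for 117 members (66.1%), where 36.2% of all tested genes had this order. Root was above stem in both for 15 members (8.47%), where 34.1% of all tested genes did. At 2-fold or more in both varieties the counts were 56 members (31.6%) for stem, beside 7.63% of all tested genes, and 1 member (0.565%) for root, beside 3.75%. A further 5 members (2.82%) were at least 2-fold apart in opposite directions in the varieties, beside 1.16% of all tested genes. The stem minus root differences of the 177 members correlated between QYZM and ZSZ1 at Pearson r = 0.654 and Spearman rho = 0.672, where all tested genes gave 0.596 and 0.562. The varieties share no library here, but the points share the added 1 and the cap set by the rule, and genes are not independent replicates.

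The varieties were compared next. The rule required the leaf pattern in both, so a gene that lacked the leaf enrichment in one of them could not be a member. In leaf, 1 library against 1, the levels of the 177 genes ran in nearly the same order in QYZM and ZSZ1 (Spearman rho = 0.937, Pearson r = 0.948 on log2(FPKM + 1), across genes), where all tested genes gave 0.911 and 0.918. The ZSZ1 value was lower for 118 members and higher for 59, with a median difference of -0.21, where all tested genes had a median of -0.41. This direction depended on scaling. The members' median was 0.37 under median-of-ratios scaling, 0.29 with each library set to a total of 1000000 and 0.21 under quantile normalization, where the medians of all tested genes were 0.03, -0.02 and 0.03.

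**Figure D5:**
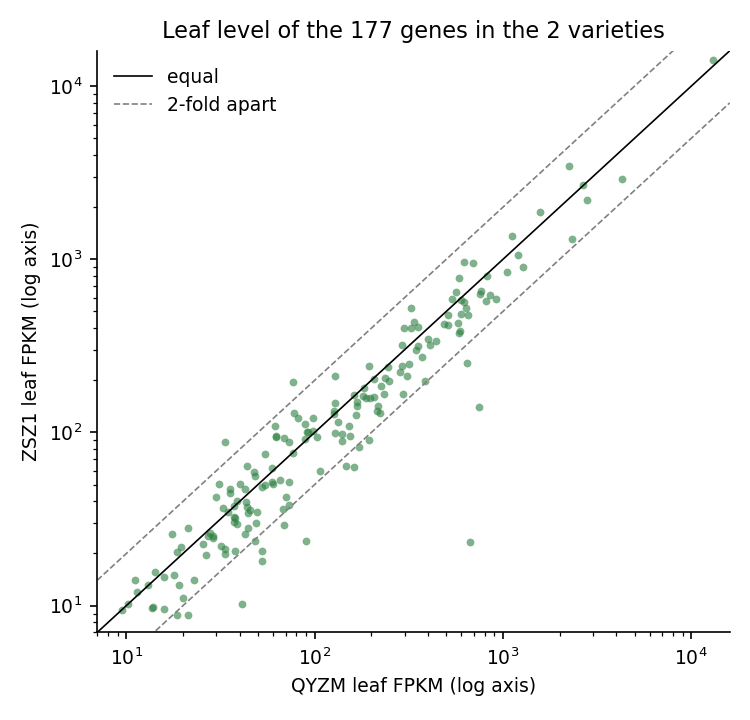
Leaf FPKM of the 177 genes in QYZM (horizontal) and ZSZ1 (vertical), both on log axes, with lines for equal values and for values 2-fold apart. Most genes lie between the broken lines, and the lowest point relative to them is Bnt12G017514, at 671 FPKM in QYZM and 23.2 FPKM in ZSZ1.

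A total of 13 members (7.34%) were at least 2-fold lower in ZSZ1 leaf than in QYZM leaf on this scale, where 15% of all tested genes were. At least 2-fold higher were 2 members (1.13%), beside 2.03% of all tested genes. Taken relative to the median of all tested genes, the counts were 5 members (2.82%) lower and 11 (6.21%) higher, beside 6.48% and 4.07% of all tested genes. The rule used the leaf values of both varieties, so the shares of members are partly set by it. The largest gap, named here after its value was seen, was that of Bnt12G017514, whose leaf level was 671 FPKM in QYZM and 23.2 FPKM in ZSZ1. Elsewhere it was at 4.21 FPKM in QYZM root, and in stem at 0.53 FPKM in QYZM and 1.69 FPKM in ZSZ1, and it was listed at 0 in ZSZ1 root. The 2 higher genes were Bnt04G005726, with 33.4 and 87.9 FPKM in leaf of QYZM and ZSZ1, and Bnt07G011401, with 76.6 and 195 FPKM.

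In root, 33 members (18.6%) were at least 2-fold lower in ZSZ1, beside 12.9% of all tested genes, and 9 (5.08%) were at least 2-fold higher, beside 6.4%. The members' median difference in root was -0.23 and that of all tested genes -0.13. In stem, 4 members (2.26%) were at least 2-fold lower in ZSZ1 and 6 (3.39%) higher, beside 7.56% and 4.32% of all tested genes, and the medians were -0.02 and -0.06. These counts set 1 library against 1 and have no replicate check.

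Over the 3 tissues together, limma called 0 members for ZSZ1 against QYZM, where 0.663% of all tested genes were called. At an unadjusted p below 0.05 it found 18 members (10.2%), beside 15.4% of all tested genes. The rule kept out genes with little leaf expression in either variety, while the tested genes include such genes. The lower shares are therefore not read as a result about the members. Bnt01G000466 came nearest to a call. In QYZM its leaf level was 748 FPKM, its root level 2.02 FPKM and its stem level 51.1 FPKM, and in ZSZ1 the same organs had 141, 0.0889 and 6.25 FPKM. It was lower in ZSZ1 in 3 of 3 tissues, and on the log2(FPKM + 1) scale, which compresses the low root values, the gap was larger in stem and leaf than in root (log2 difference -2.24 ± 0.31, SE; limma adjusted p = 0.059). Without either root library it was called at -2.62 (limma adjusted p = 0.0075 without QYZM root and 0.0089 without ZSZ1 root), and with 0.1 added in place of 1 at -2.97 (limma adjusted p = 0.0256). Over its alternatives the adjusted p ran from 0.0075 to 1.0. It was also among the members called higher in stem than in root (3.42 ± 0.38, SE; limma adjusted p = 0.0193).

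Bnt03G005037 was lower in ZSZ1 in each tissue as well, with QYZM levels of 173 FPKM (leaf), 3.55 FPKM (root) and 12.1 FPKM (stem) and ZSZ1 levels of 82.1, 0.0726 and 2.09 FPKM in that order. It was not called (-1.74 ± 0.29, SE; limma adjusted p = 0.0854). On the higher side, Bnt02G002137 had QYZM levels of 620 FPKM (leaf), 1.70 FPKM (root) and 18.7 FPKM (stem) and ZSZ1 levels of 966, 24.5 and 53.5 FPKM in that order. Its largest gap was in root, and it was not called (1.78 ± 0.50, SE; limma adjusted p = 0.212). Bnt07G011401 was higher in ZSZ1 by similar amounts in all 3 tissues, with 1.32 and 5.09 FPKM in root and 0.679 and 2.34 FPKM in stem, and was not called (1.24 ± 0.23, SE; limma adjusted p = 0.102).

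Taken variety by variety, 313 genes met the rule in QYZM and 245 in ZSZ1. These counts use the values as deposited, where summed FPKM was 433435 in QYZM leaf and 306497 in ZSZ1 leaf. They were not repeated under other scalings. The 177 shared genes were 56.5% of the QYZM set and 72.2% of the ZSZ1 set. Of the 136 genes that met it in QYZM alone, 59 were still at least 4-fold above both other organs in ZSZ1, and 28 had a smallest ratio under 2. Of the 68 that met it in ZSZ1 alone, 41 were at least 4-fold in QYZM and 24 had a smallest ratio under 2. Among the QYZM-only genes the leaf-to-stem ratio missed the threshold in ZSZ1 for 121 and the leaf-to-root ratio for 65, with 50 missing both. Among the ZSZ1-only genes the counts in QYZM were 61 and 42, with 35 missing both.

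Identifiers gave the only information on position. They carry 14 numbered prefixes or the prefix Un and are numbered from 1 to 20693 without a gap. Whether neighbouring numbers are neighbouring genes was not given in the sources used here. Members occurred under all 15 prefixes, at 0.855% of all identifiers, from 0.374% under Un and 0.438% under prefix 3 to 1.44% under prefix 8, which held 19 members among 1316 genes. A total of 8 members (4.52%) had another member at the next or previous number, as 4 pairs with no longer run, where 1.71% of all identifiers had a member at such a number. In the pair with the highest summed leaf level, Bnt02G003683 had 38.5 and 40.2 FPKM in leaf of QYZM and ZSZ1, and Bnt02G003684 had 1271 and 898 FPKM. The latter was at 110 and 97.4 FPKM in stem and 21.4 and 31.5 FPKM in root, and was called higher in stem than in root (1.95 ± 0.37, SE; limma adjusted p = 0.0442). The second gene of the strictest pattern, Bnt05G008072, also stood in such a pair. Its partner Bnt05G008071 had leaf levels of 622 and 565 FPKM, root levels of 3.0 and 0.637 FPKM and stem levels of 0.203 and 2.90 FPKM, each for QYZM and then ZSZ1. If paired genes are near-identical copies, the authors' counting could have divided reads between them, which was not tested.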

How the data were processed

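Expression came as 1 table of FPKM values, as deposited by the authors, covering 20693 genes and 6 libraries. Bowtie2 and RSEM appear in the submitters' processing notes, with neither version nor purpose. Assembly, gene models and use of strand were not stated in the sources. Columns were matched to samples by title. FPKM are relative, so the highest leaf genes lower all others in their library. Read counts were not used here, so no counting interval or floor is given.

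Members were found by the rule on the values as deposited. Log2(FPKM + 1) was fitted with limma 3.58.1 (R 4.3.3), using tissue and variety terms and a mean-variance trend, for the 14941 genes that reached 1 FPKM in 2 or more libraries. Errors come from how far libraries depart from additive tissue and variety effects, so they include tissue-by-variety differences, with 2 residual and 3.71 prior degrees of freedom. Adjusted p-values run over all tested genes. Nothing says that libraries came from separate plants or batches, so p-values reflect only how these 6 libraries vary, and what the libraries of a variety share cannot be told apart from variety. Relative depth was read from genes below 0.2 FPKM in pairs of libraries, if whole fragments were counted. Tables and figures used Python 3.11.15, pandas 2.3.3, numpy 2.4.6, scipy 1.17.1 and matplotlib 3.10.9.

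The members, tests and alternatives were chosen with earlier results of these data known. Named genes were at most 2 for each of these classes: the highest leaf level, the largest smallest ratio, each side of the threshold, each direction of both tests (called, or else with 1 sign in every tissue or variety), the highest value outside leaf and the highest adjacent pair. Other genes were named from their values, and not all of them are marked so where they appear. Planned gene lists (photosynthesis, chlorophyll, wax, wall and transport genes) needed names and were not used. Alternatives were other pseudocounts, filters, scalings, moderation, fold thresholds and blocking, and leaving out each library.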

Additional observations from a re-analysis of the deposited data

Results flagged for a closer look

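The stem minus root difference, on the log2(FPKM + 1) scale, had opposite signs in the varieties in 36 members. It was negative in QYZM and positive in ZSZ1 in 25 and the reverse in 11. Of all tested genes 36.2% had stem above root in both varieties and 34.1% root above stem in both. Of the members 66.1% and 8.47% had these orders. How often opposite signs occurred over all tested genes, and in which direction, was not counted. The counts of opposite signs are therefore not read as a result about the members. The 5 members with at least 2-fold gaps in both varieties are given, all negative in QYZM, and Bnt04G006845 is given with smaller gaps because it is described above. The differences between varieties were not tested, since each value sets 1 library against 1. Of all tested genes 1.16% were at least 2-fold apart in opposite directions, and of the members 2.82%. Bnt13G018812 had -3.06 in QYZM, where root was at 19.9 FPKM and stem at 1.51 FPKM, and 2.19 in ZSZ1, where root was listed at 0 and stem was at 3.57 FPKM. Bnt12G017514 had -1.77 in QYZM and 1.43 in ZSZ1, and Bnt02G002472 had -1.65 and 1.34. Bnt05G008071 had -1.73 and 1.25, and Bnt05G008334 had -1.19 and 1.53. Bnt04G006845 had -0.93 and 0.70, from root and stem values near 2.0 FPKM or less.

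The ZSZ1 minus QYZM difference of the same 5 members was negative in root and positive in stem, untested for the same reason. It comes from the same root and stem values by which the 5 were picked. The difference therefore had to be higher in stem than in root. In Bnt05G008071 and Bnt05G008334 it was at least 2-fold in both organs. It was 1.70 in stem and -1.29 in root for Bnt05G008071, and 1.09 in stem and -1.62 in root for Bnt05G008334. In the 3 others it was 0.57 to 0.86 in stem and -4.39 to -2.38 in root.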

How the results depend on the processing

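The labels give no replicate numbers to pair, and the model already compares organs within variety. Without the other factor as a term, 31 members were called for stem against root and 0 for the varieties. The number of members was 91 at a pseudocount of 5, 413 at 4-fold, 72 at 16-fold and 298 under median-of-ratios scaling. It was 265 at a pseudocount of 0.1, 236 at a total of 1000000 and 234 under quantile normalization. A leaf minimum of 5 FPKM left 177. That outcome was fixed in advance, since the 8-fold rule with 1 added already requires a higher leaf level. The rule needs all 6 libraries, so none was left out of it. Members called for stem against root numbered 42, with 27 at a pseudocount of 5, 7 with no filter, 22 at a total of 1000000 and 0 to 54 with a library left out. The stem-higher share was 15.3% at a pseudocount of 5, 3.95% with no filter and 11.9% at that total, beside 2.93%, 0.242% and 1.73% of all tested genes, and 0% to 29.9% beside 0% to 7.08% with a library left out. Members called for the varieties numbered 0, with 1 at a pseudocount of 0.1 (Bnt01G000466; 129 of all genes) and 0 to 1 with a library left out (Bnt01G000466 without either root, Bnt12G017514 without either stem; 0 to 287 of all genes). The 8 named differences kept their sign under all 16 alternatives. These genes were chosen with 1 sign in every tissue or variety, so only the scalings could have changed it. The rest of that outcome was fixed in advance. Causes were not tested.

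The median stem minus root difference at pseudocounts of 0.1 and 5 and at a total of 1000000 was 1.09, 0.37 and 0.93 in QYZM and 1.52, 0.33 and 1.12 in ZSZ1, and in QYZM 0.55 at 4-fold and 0.87 at 16-fold membership. The median ZSZ1 minus QYZM difference in leaf was 0.29 (total), 0.37 (median-of-ratios) and 0.21 (quantile), against -0.21. In root it was -0.63 and -0.0866 at pseudocounts of 0.1 and 5, -0.39 (total), -0.0829 (quantile) and -0.33 at 16-fold membership. Leaving out the 287 genes among the 100 highest of any library, the members held 4.84%, 0.101% and 0.2002% of QYZM leaf, root and stem and 5.75%, 0.0791% and 0.195% of ZSZ1. At 4-fold membership the shares were 23.2%, 0.733% and 1.77% in QYZM and, in root and stem, 0.57% and 1.78% in ZSZ1. At 16-fold, root and stem had 0.0869% and 0.357% in QYZM and 0.0593% and 0.337% in ZSZ1. Adjacent members were 9.93% at 4-fold and 2.78% at 16-fold. The share of all identifiers beside a member grows with the number of members. It was not counted at these folds, so the shares of adjacent members are not compared.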
